A study of Mus musculus with 4 samples.

Results

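The 50 genes described here encode homeodomain transcription factors that lie outside the Hox clusters, from the primitive streak gene Mixl1 to regulators of the eye, brain, limb, pancreas and gut. They were given as a list of symbols, without use of binding values, although with earlier results of these data known. All 50 were found among 21887 protein-coding genes, and 199 of 34616 gene-assigned OTX2 regions fell to them, out of 39615 regions in all. A region was given to the gene whose span held its midpoint (the shortest span if there were several), and otherwise to the protein-coding gene with the nearest end, up to 100 kb away. The stretch of genome from which a gene can receive regions under this rule is called its territory.

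The study mapped OTX2 along the path from mouse epiblast stem cells (EpiSCs) to definitive endoderm (DE), with CUT&RUN, in which an antibody directs a nuclease to its target on chromatin so that the DNA around it is released and sequenced. The 4 libraries described by the labels are primitive streak (PS) libraries from 500000 cells each. Of these, 3 were made with anti-HA from the lines 7H, 7H1 and 7H2 OTX2-dTAG-EGFP, and 1 with IgG from the line 7H2 OTX2-dTAG-EGFP. All lines had a BL6/129 hybrid background and OTX2 with the tag that anti-HA recognises, so the tagged allele was present under IgG too. Each replicate was thus another named line, and no untagged cells were among the libraries. EpiSCs were kept with Activin A at 20 ng/ml, FGF2 at 12.5 ng/ml and NVP at 175 nM. The PS stage was reached after 16 h with CHIR, which activates WNT signalling, at 3 uM and Activin A at 40 ng/ml. The DE stage followed after 24 h more, with LDN, an inhibitor of BMP receptors, at 100 nM and Activin A at 100 ng/ml, and live DE cells were sorted. The values are 4 deposited lists of region coordinates, named for the stages that hold the region: EPI and PS (379 regions), PS only (1634), PS and DE (6157) and DE only (31445). By their names, each list holds regions found only in the stages named. Regions shared by EPI, PS and DE, in EPI only, or in EPI and DE are therefore in none of them. The counts below thus do not cover all OTX2 binding at a gene. The lists carry no height and no value per library. Replicate error and depth are therefore unknown, and the counts below are descriptions without a test.

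The homeodomain is a compact DNA-binding fold, and the homeobox is the stretch of coding DNA that encodes it. Homeobox genes give cells their position along the body axis and later their organ identity, often by activating or repressing one another. OTX2 is itself a homeodomain factor, needed in the mouse for the anterior epiblast, the anterior endoderm and the brain in front of the hindbrain. It recognises the sequence TAATCC, which contains TAAT, the core around which the preferred sites of most homeodomains are built.

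OTX2 regions found in DE alone were present at 45 of the 50 genes and made up 82.4% of their 199 regions. DE only is the longest list, and its share over all genes was close to that, at 79.4% of 34616 regions. DE only regions numbered 164, in 45 of the 50 genes (90.0%), against 10967 of all protein-coding genes (50.1%). PS and DE regions numbered 27, in 20 genes (40.0%), against 16.3% of all genes. PS only regions numbered 8, in 7 genes (14.0%), against 5.6% of all genes. EPI and PS regions were found at 0 of the 50 genes, against 1.45% of all genes. With 335 assigned EPI and PS regions, a count of 0 allows a share of up to 0.896%, and the mean rate over all genes would give 0.976 regions, so a deficit was not detectable at this list length. At least 5 DE only regions were held by 12 of the 50 genes (24.0%), against 6.57% of all genes. The median was 2 DE only regions per homeobox gene, against 1 over all genes.

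**Figure D1:**
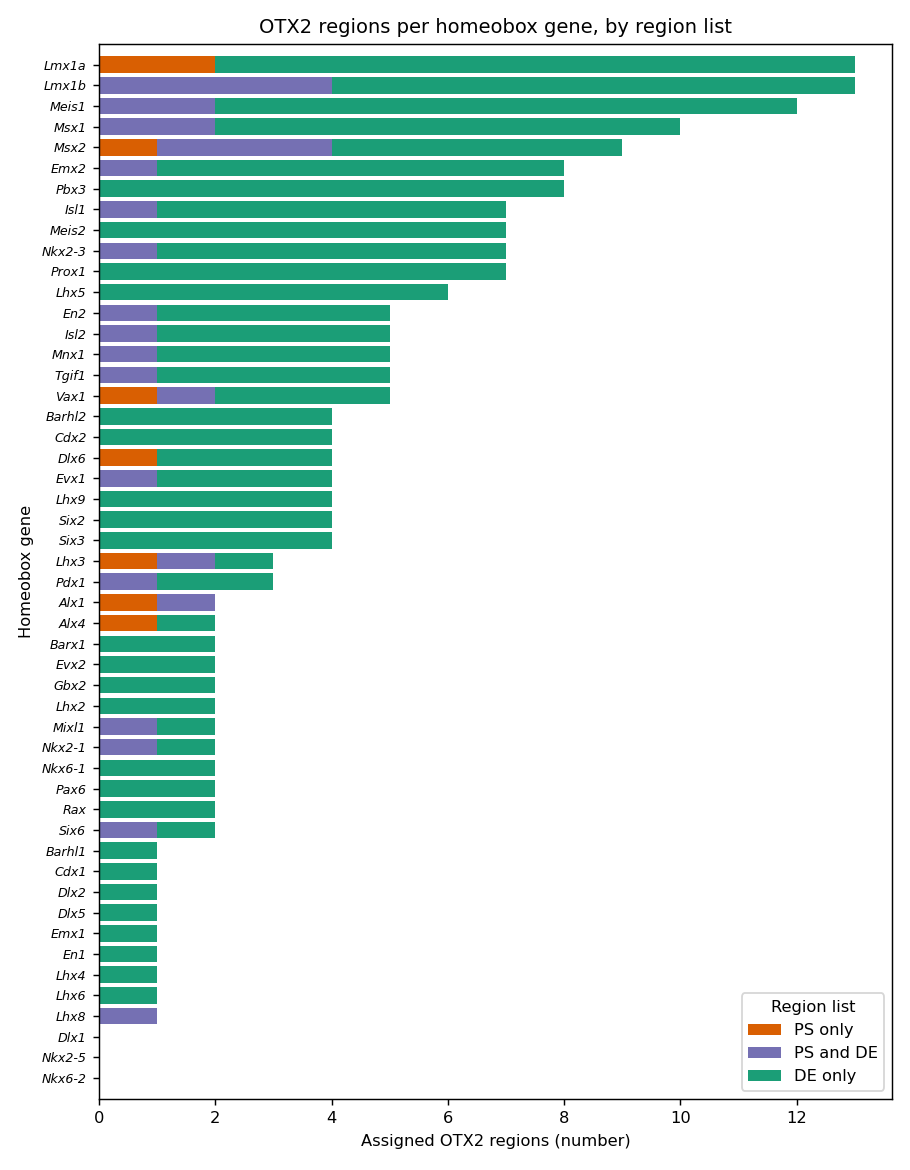
Number of assigned OTX2 regions (horizontal axis) at each of the 50 homeobox genes (vertical axis), with bar colours for the 3 region lists in which any was found. Lmx1a and Lmx1b reach 13 regions each, DE only regions make up most of nearly every bar, and Dlx1, Nkx2-5 and Nkx6-2 have 0.

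A longer territory can receive more regions. The median territory was 108 kb for the homeobox genes and 45.1 kb for all protein-coding genes. Among genes whose territory lay between the lower and upper quartile of the homeobox genes (46.8 to 140.1 kb), 22 of 24 homeobox genes held a DE only region (91.7%), against 60.1% of 6858 genes. For PS and DE the figures were 11 of 24 (45.8%), against 19.1%. Per 100 kb of territory, the homeobox genes had 2.95 DE only regions, against 1.44 over all genes, a ratio of 2.05 (95% Wilson interval 1.76 to 2.39). The ratio was 1.72 (1.18 to 2.502) for PS and DE regions, with 0.485 against 0.282 per 100 kb. It was 1.92 (0.976 to 3.78) for PS only, an interval that includes equal rates, with 0.144 against 0.0747 per 100 kb. These intervals cover counting error only and treat regions as independent, which neighbouring regions are not.

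Without the 5 genes with the most DE only regions, the remaining 45 had 2.74 per 100 kb. These 5 were picked by number, not by rate, and included the long territories of Lmx1a and Meis1. Genes with higher rates, such as Cdx2 and Isl2, stayed in. The step therefore does not show how far the rate rests on the densest genes. Without the 5 richest in PS and DE regions, 15 of those regions remained, at 0.322 per 100 kb against 0.282 over all genes. The 10 genes with the most DE only regions held 79 of the 164 (48.2%). A DE only rate above the mean over all genes was seen at 40 of the 50 genes (80.0%), against 37.9% of all genes.

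**Figure D2:**
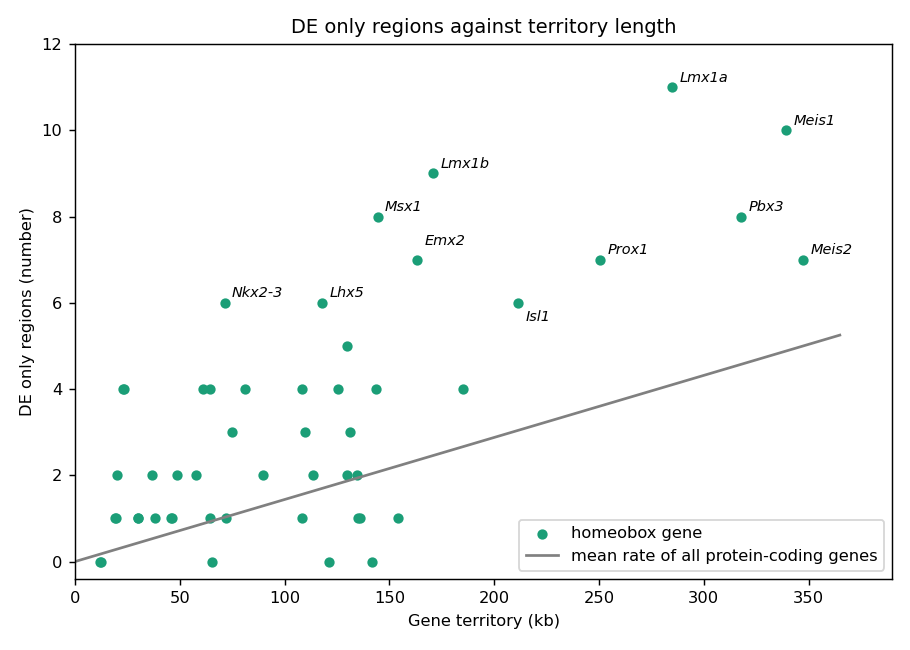
DE only regions (vertical axis, number) against territory (horizontal axis, kb) for the 50 homeobox genes, with the grey line at the mean rate of all protein-coding genes, 1.44 per 100 kb. Lmx1a, Meis1 and Lmx1b stand highest, and 40 of the 50 points lie above the line.

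Grouped by role, the 6 genes of the streak and the posterior body axis had the highest DE only rate, 4.98 per 100 kb, from 13 regions in short territories. Of these 13 regions, 4 were at Cdx2 alone, in a territory of 22.7 kb. The rate was 3.48 for the 10 genes of midbrain, hindbrain and spinal cord, 3.04 for the 7 genes of endoderm-derived organs and 2.87 for the 12 genes of forebrain and eye. It was 2.67 for the 4 genes of the TALE class and 2.261 for the 11 genes of face, limb, kidney and heart. All 6 groups were above 1.44, and their order rests on 13 to 36 regions each and was not tested.

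**Figure D3:**
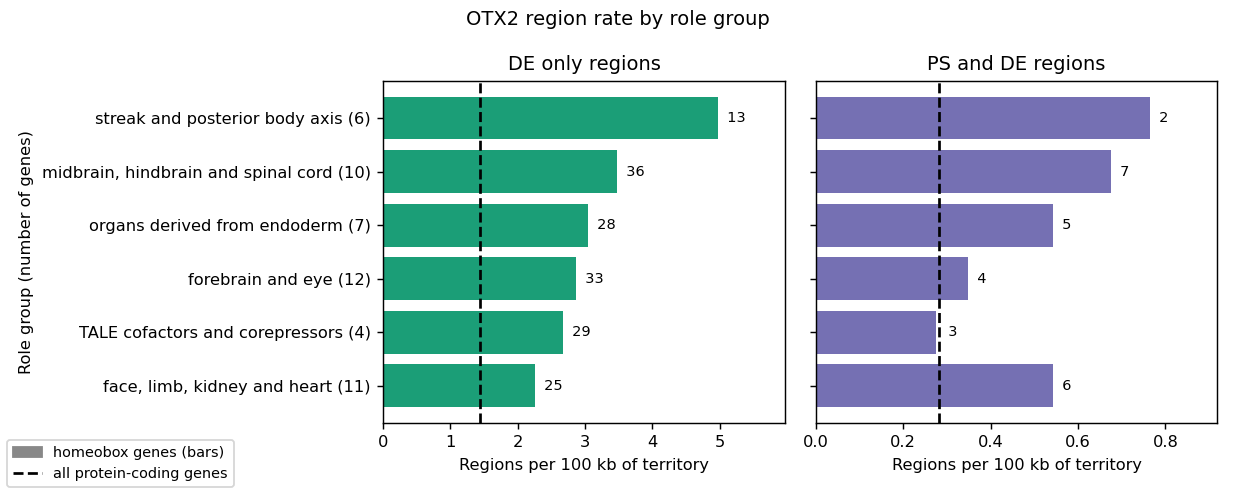
Regions per 100 kb of territory (horizontal axes) for 6 role groups of homeobox genes (vertical axis), with DE only regions in the left panel, PS and DE regions in the right one, the number of regions beside each bar and a dashed line at the rate of all protein-coding genes. Every DE only bar passes the line at 1.44, and for PS and DE the TALE genes stay just under theirs, at 0.276 against 0.282.

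Among the streak and posterior genes, all 6 held a DE only region and 2 a PS and DE region. Cdx2, which specifies posterior gut and trophectoderm, held 4 DE only regions in a territory of 22.7 kb, where the mean rate would give 0.327. All 4 lay downstream of the gene, at 1.10, 1.56, 6.63 and 7.54 kb from its far end, on the side that faces Pdx1. Evx1, a streak gene at the end of the Hoxa cluster, held 3 DE only regions and 1 PS and DE region. The PS and DE region lay 14.4 kb downstream of the gene. Mixl1, a paired-type factor of the streak that guides mesoderm and endoderm formation, held 1 DE only region 12.5 kb away and 1 PS and DE region 0.508 kb outside the gene (chromosome 1, 180697462 to 180697622). That PS and DE region was the nearest to a gene end among all 27 at the homeobox genes. Gbx2, which opposes Otx2 at the boundary of midbrain and hindbrain, held 2 DE only regions, the nearer centred 0.097 kb upstream of its start. Evx2 held 2 DE only regions and Cdx1, an intestinal caudal-type gene, held 1.

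The genes of endoderm-derived organs all held DE only regions, and 5 of the 7 held a PS and DE region. Nkx2-3, needed for gut and spleen (chromosome 19, 43612325 to 43615892), had 6 DE only regions in 71.4 kb, where the mean rate would give 1.03. Of these, 1 lay at its start, 4 lay upstream between 10.9 and 27.9 kb, and 1 lay 8.26 kb downstream. Its single PS and DE region (43582469 to 43582546) was 1.89 kb from the farthest upstream DE only region. Isl1, a LIM factor of pancreatic islets, motor neurons and heart progenitors (chromosome 13, 116298270 to 116309688), had 6 DE only regions and 1 PS and DE region. The PS and DE region lay 32.7 kb upstream, beyond DE only regions at 23.7 and 29.1 kb.

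Prox1, a prospero-type factor of liver, pancreas and lymphatic vessels (chromosome 1, 190118035 to 190170827), had 7 DE only regions and 0 in the other lists. It had 5 regions inside the gene, of which 3 lay within 2.52 kb of its start. Mnx1, a factor of the early pancreas and of motor neurons, held 4 DE only regions and 1 PS and DE region, all 5 within 20 kb of one another, where 0.876 DE only regions would come at the mean rate. Pdx1, required for the pancreas (chromosome 5, 147270097 to 147275848), held 2 DE only regions, at 0.053 and 1.86 kb upstream, and 1 PS and DE region 29.5 kb upstream. Nkx6-1, a beta-cell factor, held 2 DE only regions. Nkx2-1, which specifies thyroid and lung, held 1 DE only region and 1 PS and DE region 72.3 kb away.

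The midbrain, hindbrain and spinal cord genes included the pair with the most regions of all 50. Lmx1a, a LIM factor of roof plate and dopamine neurons (chromosome 1, 167688230 to 167848741), held 2 PS only, 0 PS and DE and 11 DE only regions. In its 285 kb the mean rate would give 4.10, and 185 of all genes reached at least 11. Of its 13 regions, 10 lay inside the gene, and the 2 PS only regions, 66.8 and 80.3 kb from the start, sat between DE only regions at 10.2 and 94.1 kb. Lmx1b, its paralogue, which patterns the dorsal limb and is needed for serotonin neurons (chromosome 2, 33560965 to 33641208), held 0 PS only, 4 PS and DE and 9 DE only regions. In its 171 kb the mean rates would give 2.46 DE only and 0.482 PS and DE regions. Of all genes, 171 held at least 4 PS and DE regions. Inside Lmx1b lay 11 of the 13, and 1 of its PS and DE regions, outside the gene, was just 2 bp wide. Within the 4 lists, regions that include the PS stage were thus PS only at Lmx1a and PS and DE at Lmx1b. This difference of 2 and 4 regions was not tested, and regions shared by EPI, PS and DE are in no list.

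Isl2, a motor neuron factor, had 4 DE only regions in 23.3 kb, where 0.335 would come at the mean rate, and 1 PS and DE region 3.54 kb upstream. These 5 regions lay within 20 kb. En2, a midbrain and cerebellum gene, had 4 DE only regions and 1 PS and DE region. Lhx3, needed for pituitary and motor neurons, had 1 region in each of PS only, PS and DE and DE only, and all 3 lay downstream of the gene. Barhl2 had 4 DE only regions, and En1, Lhx4 and Barhl1 had 1 each. Nkx6-2 had 0 regions in a territory of 12.5 kb.

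Of the 12 forebrain and eye genes, 11 held a DE only region. Emx2, a patterning gene of the dorsal forebrain and the urogenital system (chromosome 19, 59458690 to 59465357), had 7 DE only regions, where 2.35 would come at the mean rate. Of these, 1 spanned its start and 5 lay downstream, out to 86.6 kb. Its PS and DE region lay on the other side, 40.4 kb upstream. Lhx5, a LIM factor of the anterior brain (chromosome 5, 120431886 to 120441457), had 6 DE only regions in 118 kb, where 1.70 would come at the mean rate. Of these, 1 lay at an end of the gene, 1 at 7.66 kb and 4 between 22.1 and 90.8 kb away. Vax1, a ventral forebrain and optic nerve gene, had 1 PS only, 1 PS and DE and 3 DE only regions (chromosome 19, 59164480 to 59170397). Its PS only region lay 10.2 kb downstream of the gene, 2.32 kb from a DE only region, and its PS and DE region 20.2 kb upstream, 1.38 kb from another. Six3, which holds the most anterior forebrain and the eye in place, had 4 DE only regions, at 28.9, 31.3 and 50.6 kb upstream and 1.29 kb inside. Lhx9 had 4, and Lhx2, Pax6 and Rax, which act in the eye, had 2 each. Six6 had 1 DE only region and 1 PS and DE region, Emx1 and Lhx6 had 1 DE only region each, and Lhx8 had 1 PS and DE region and 0 DE only regions.

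In the face, limb, kidney and heart group, the most regions were at the Msx pair. Msx1, a target of BMP signalling in tooth, palate and limb (chromosome 5, 37820491 to 37824585), held 8 DE only regions, all within 11.5 kb of the gene, and 2 PS and DE regions at 24.8 and 31.8 kb upstream. In its 144 kb the mean rate would give 2.08 DE only regions. Msx2, its paralogue of skull and skin (chromosome 13, 53466881 to 53472780), held 1 PS only, 3 PS and DE and 5 DE only regions. The PS and DE regions lay 11.3 kb downstream and 50.4 and 91.6 kb upstream, and 409 of all genes held at least 3. At both Msx genes a DE only region lay within 0.141 kb of the start, whereas the nearest PS and DE region was 24.8 kb from Msx1 and 11.3 kb from Msx2.

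Six2, a gene of nephron progenitors, had 4 DE only regions. Dlx6, of jaw and forebrain interneurons, had 3 DE only regions and 1 PS only region 3.65 kb away. Alx1, of the face, had 1 PS only region 26.8 kb from the gene and 1 PS and DE region 84.8 kb away. Alx4, of face and limb, had 1 PS only region 54.2 kb away and 1 DE only region inside the gene. Barx1, of the stomach mesenchyme, had 2 DE only regions, and Dlx2 and Dlx5 had 1 each. Dlx1, in a territory of 12.04 kb, and Nkx2-5, a heart gene with 65.4 kb, had 0 regions in all 4 lists, where the mean rates would give 0.173 and 0.942 DE only regions.

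The 4 TALE genes encode partners of other homeodomain proteins or corepressors, and their territories ran from 80.9 kb at Tgif1 to 348 kb at Meis2. Meis1, a cofactor of Hox and Pbx proteins (chromosome 11, 18880428 to 19019651), held 10 DE only regions, against 4.88 at the mean rate, and 2 PS and DE regions. A PS and DE region 3.75 kb upstream lay 0.615 kb from a DE only region at 3.14 kb, and the second PS and DE region lay 83.5 kb upstream. Pbx3 (chromosome 2, 34171457 to 34372045) held 8 DE only regions, against 4.57 at the mean rate, with 6 inside the gene and the others 0.681 and 4.83 kb outside it. Meis2, a close relative of Meis1 (chromosome 2, 115861264 to 116067537), held 7, against 5.00 at the mean rate, with 5 inside the gene and the others 58.5 and 61.9 kb upstream. Both had 0 regions in the lists that include PS. For their territories of 318 and 348 kb these counts were nearer to the mean rate than that of any other gene with at least 7. Tgif1, a repressor that limits SMAD and retinoic acid signalling, held 4 DE only regions (1.16 at the mean rate) and 1 PS and DE region 18.7 kb upstream.

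**Figure D4:**
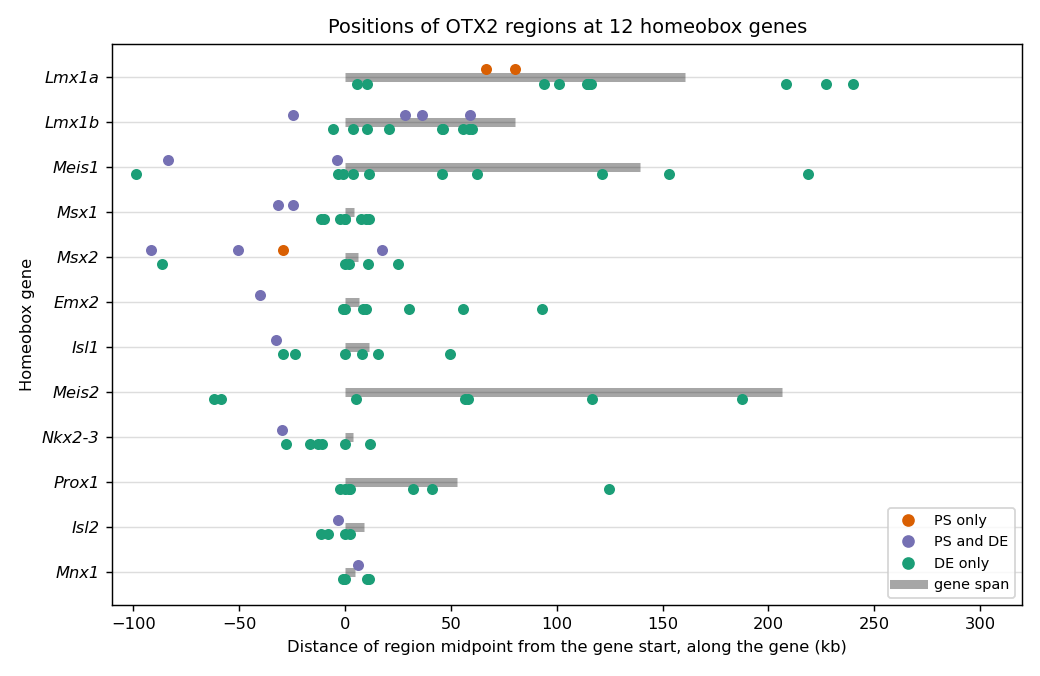
Midpoints of PS only, PS and DE and DE only regions (points, drawn above or below the line for legibility) by distance from the gene start in the direction of the gene (horizontal axis, kb) at the 12 homeobox genes with the most regions among those whose strand the promoter table gives. Isl2, Mnx1, Tgif1 and Vax1 tie at 5 regions, and Isl2 and Mnx1 are shown by order of name. Grey bars are gene spans; regions of Lmx1a and Lmx1b lie mostly inside the gene, those of Msx1 within 31.8 kb around a gene of 4.1 kb.

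At the homeobox genes, gene spans took up less of the territory than at other genes, and a larger share of regions lay outside the gene. Relative to length, DE only regions were nevertheless denser inside these genes than around them. The gap in shares was wider for PS and DE than for DE only regions, without a test of either. Of the 27 PS and DE regions, 16 (59.3%, 95% Wilson interval 40.7 to 75.5) lay outside and over 10 kb away, against 26.9% (25.7 to 28.1) of 5356 at other genes. Of the 164 DE only regions, 53 (32.3%, 25.6 to 39.8) lay there, against 24.1% (23.6 to 24.6) of 27307. Gene spans took up 24.2% of the homeobox territories and 54.1% of the other territories, which moves these shares in the same direction. Per 100 kb, DE only regions were denser inside homeobox genes (4.16) than around them (2.56), whereas at other genes these rates were 1.44 and 1.42. PS and DE regions were sparser inside homeobox genes (0.297) than around them (0.546), from 4 and 23 regions, and were at 0.277 and 0.287 at other genes. The 4 inside regions lay in Lmx1b and Lhx8 only. The share within 1 kb of a gene end was 12.8% (8.53 to 18.8) of DE only regions at homeobox genes, against 15.9% at other genes. For PS and DE it was 3.70% (1 of 27), against 11.8%.

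**Figure D5:**
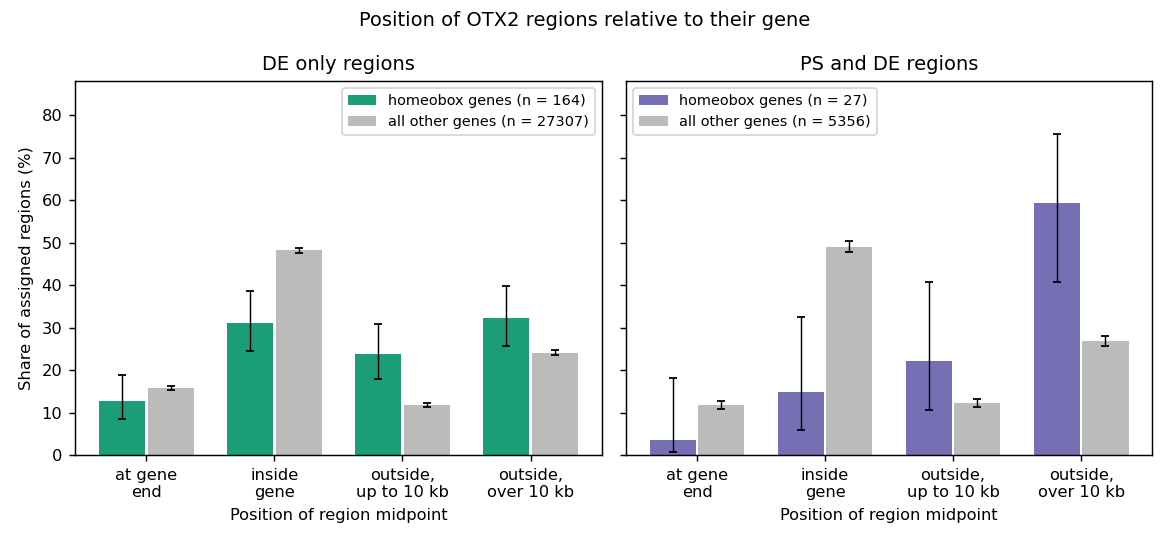
Share of assigned regions (vertical axes, percent) by position of the midpoint, for homeobox genes (coloured) and all other genes (grey), with 95% Wilson intervals as error bars, DE only regions on the left and PS and DE regions on the right. The tallest homeobox bar is that of PS and DE regions over 10 kb outside the gene, at 59.3% against 26.9%.

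For genes with a strand in the promoter table, 14 of 20 PS and DE regions outside homeobox genes were upstream (70.0%), against 62.1% at other genes. For DE only regions it was 51 of 92 (55.4%), against 62.3%. Within each list widths were alike, with medians of 120 bp for DE only and 109 bp for PS and DE regions at homeobox genes, against 118 and 121 bp at other genes. The narrowest region was 62 bp in the whole DE only list and 2 bp in the whole PS and DE list. Whether width means the same in both lists is unknown.

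Homeobox genes with a PS and DE region had DE only regions as often as the 50 genes as a whole. Of the 20 homeobox genes with a PS and DE region, 18 also had a DE only region (90.0% of the 20 and 40.0% of the 45), the exceptions being Alx1 and Lhx8, and 45 of all 50 did (90.0%). Among all genes 2844 had both, 79.8% of those with a PS and DE region and 25.9% of those with a DE only region. The median distance from a PS and DE region to the nearest DE only region was 9.04 kb at homeobox genes, against 11.2 kb at other genes, and 15 of 27 (55.6%) had one within 10 kb, against 47.6%. The 8 PS only regions had a median of 20.5 kb, against 16.6 kb. All 3 lists met at Msx2, Vax1 and Lhx3.

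The RefSeq promoter table (GRCm38.p6), with windows from 250 bases before to 50 after each start, held 40 of the 50 genes. A DE only region overlapped a window of 11 of the 40 (27.5%), against 15.9% of 17492 protein-coding genes in the table. The 11 were Emx2, Gbx2, Isl1, Isl2, Mnx1, Msx1, Msx2, Nkx2-3, Pdx1, Prox1 and Six2. Regions of PS and DE, of PS only and of EPI and PS overlapped 0 of these windows, against 2.201%, 0.383% and 0.0686% of genes in the table. At those shares 40 genes would give 0.880, 0.153 and 0.0274, so a deficit was not detectable. Windows for Alx1, Alx4, Cdx1, Dlx5, Dlx6, En2, Lhx5, Mixl1, Pbx3 and Rax were not used here.

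The 250 bases before the start are given for 6 of the 11 genes whose promoter window a DE only region overlapped. At these 6, DE only regions covered at least 100 of the bases and the window lay outside the gene span. Bases in capitals are those inside a DE only region, and each sequence runs along the gene towards its start.
Pdx1 (chr5:147269847-147270096, plus strand): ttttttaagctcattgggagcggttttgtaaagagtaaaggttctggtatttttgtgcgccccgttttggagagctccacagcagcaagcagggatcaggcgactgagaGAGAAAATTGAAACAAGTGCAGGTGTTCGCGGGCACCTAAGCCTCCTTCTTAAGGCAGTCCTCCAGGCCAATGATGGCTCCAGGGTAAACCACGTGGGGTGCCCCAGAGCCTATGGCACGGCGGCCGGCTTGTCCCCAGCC
Nkx2-3 (chr19:43612075-43612324, plus strand): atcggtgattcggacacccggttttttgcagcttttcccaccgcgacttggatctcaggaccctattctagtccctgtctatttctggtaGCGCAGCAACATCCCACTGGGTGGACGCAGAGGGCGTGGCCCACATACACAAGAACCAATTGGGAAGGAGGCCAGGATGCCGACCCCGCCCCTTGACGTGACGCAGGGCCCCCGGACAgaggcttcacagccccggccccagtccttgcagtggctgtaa
Gbx2 (chr1:89931177-89931426, minus strand): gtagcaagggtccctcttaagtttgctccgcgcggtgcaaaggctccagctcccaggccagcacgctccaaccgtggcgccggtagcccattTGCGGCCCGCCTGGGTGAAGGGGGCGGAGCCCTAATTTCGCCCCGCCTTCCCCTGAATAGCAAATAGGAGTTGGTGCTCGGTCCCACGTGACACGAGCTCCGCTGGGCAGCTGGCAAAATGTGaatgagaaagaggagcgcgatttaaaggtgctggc
Msx1 (chr5:37824586-37824835, minus strand): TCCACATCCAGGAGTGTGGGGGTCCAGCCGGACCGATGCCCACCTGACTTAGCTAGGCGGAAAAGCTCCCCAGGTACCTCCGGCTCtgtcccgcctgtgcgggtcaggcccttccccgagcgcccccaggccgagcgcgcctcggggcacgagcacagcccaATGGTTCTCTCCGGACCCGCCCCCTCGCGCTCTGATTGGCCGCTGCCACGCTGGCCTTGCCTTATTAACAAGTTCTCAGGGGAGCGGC
Msx2 (chr13:53472781-53473030, minus strand): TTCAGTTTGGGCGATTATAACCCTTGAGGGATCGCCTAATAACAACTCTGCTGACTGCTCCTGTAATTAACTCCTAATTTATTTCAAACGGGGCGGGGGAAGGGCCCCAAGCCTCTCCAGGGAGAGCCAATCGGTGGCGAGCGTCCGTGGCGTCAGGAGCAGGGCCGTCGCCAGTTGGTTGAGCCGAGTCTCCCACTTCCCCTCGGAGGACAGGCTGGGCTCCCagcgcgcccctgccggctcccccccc
Six2 (chr17:85688255-85688504, minus strand): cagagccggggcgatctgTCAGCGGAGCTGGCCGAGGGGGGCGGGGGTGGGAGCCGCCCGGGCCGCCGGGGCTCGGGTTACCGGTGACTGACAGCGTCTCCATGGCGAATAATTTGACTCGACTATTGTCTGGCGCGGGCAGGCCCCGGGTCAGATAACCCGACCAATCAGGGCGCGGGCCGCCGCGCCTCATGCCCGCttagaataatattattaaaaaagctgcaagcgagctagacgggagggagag

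The covered part was 141 bases at Pdx1, 118 at Nkx2-3, 123 at Gbx2, 174 at Msx1 (from 2 regions), 224 at Msx2 and 181 at Six2. Among the 11 windows, that of Prox1 had 0 of the 250 bases covered, since its region met only the bases after the start. TAATCC, searched on both strands in these 250 bases, was found in 0 of the 6 and in 1 of the 11 windows with a region, that of Isl1, where it lay outside the covered bases. It was present in 5.65% of 2989 promoters with a DE only region and in 5.82% of 21263 promoters of protein-coding genes. TAAT on either strand, which TAATCC contains, was in 7 of the 11 windows (63.6%) and in 25 of 51 homeobox promoters (49.0%). It was in 37.6% of promoters with a DE only region and in 49.4% of all. In 6 of the 7 a TAAT match lay inside the covered bases, with 5 of 5 matches covered at Msx2 and 1 of 4 at Six2. The median G and C content was 64.8% in the 11 windows, against 61.2% and 55.6%.

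Neighbouring members share the ground between them, so their counts depend on where that ground is divided. Pdx1 and Cdx2 lie 25.1 kb apart with no other protein-coding gene between, and together had 6 DE only regions and 1 PS and DE region, 4 of them in the gap. Six2 and Six3 lie 36.5 kb apart and together had 8 DE only regions, of which 1 was in the gap. Dlx5 and Dlx6 had 4 DE only regions and 1 PS only region together, and Dlx1 and Dlx2 had 1 DE only region, with 0 in either gap.

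Further homeobox genes had fewer DE only regions per 100 kb than these 50. Of 118 further homeobox symbols outside the Hox clusters, 116 were matched, and 90 of them (77.6%) held a DE only region, at 2.02 per 100 kb, against 1.44 over all genes. They held 62 PS and DE regions, at 0.451 per 100 kb, 11 PS only regions in 10 genes, and 5 EPI and PS regions in 5 genes. The 39 Hox cluster genes had 22 DE only regions at 2.61 per 100 kb, in 11 genes (28.2%), and 4 PS and DE regions in 2 genes. Their median territory was 10.1 kb. The difference between the 50 genes and these lists was not tested, and the 50 were chosen with results of these data known.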

How the data were processed

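OTX2 was mapped by CUT&RUN in tagged mouse cell lines, with 3 PS anti-HA libraries and 1 PS IgG library among the samples. The authors deposited 4 headerless lists with 3 columns each (chromosome, start, end), without a height, a score or a value per library. Per the submitters' processing notes, reads were handled on mm10 with MACS2 2.2.6, bedtools 2.30, Bowtie2 2.3.5.1, Picard 2.26.10 and SAMtools 1.14. Not given in the sources used here are the peak thresholds, the use made of IgG and the rule that combined libraries and stages, which decide the list a region is in. Libraries of EpiSCs and DE cells are not among the 4 samples. The libraries behind the EPI and DE parts of the lists are therefore not described here, and their lines, antibody, control and replicates are unknown. Depth is unknown.

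Starts were changed to count from 1. Regions were assigned to genes by midpoint with a RefSeq table of GRCm38.p6, whose chromosome coordinates are those of mm10, and a scaffold without a chromosome, with 2 DE only regions, was not used. Rates divide regions by summed territory. The assignment was checked against a direct search at 2000 positions, with 0 mismatches. Strand and promoter sequences came from the RefSeq promoter table. The genes, their role groups and the comparison lists were chosen with earlier results of these data known. Positions of part of the regions were given for the 12 genes with the most regions, for genes with PS only regions and for the leading genes of each role group. No test was run, since regions are not replicates. Intervals are 95% Wilson intervals and the zero limit is 3 counts, both for counting error only. Alternatives covered the distance limit, the order of rules, region width, merging and the gene-end window. Python 3.11.15, pandas 2.3.3, numpy 2.4.6, scipy 1.17.1 and matplotlib 3.10.9 were used.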

Additional observations from a re-analysis of the deposited data

How the results depend on the processing

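The rate of the homeobox genes relative to all genes stayed within its counting interval under all 7 alternatives for each list: 1.94 to 2.23 for DE only, 1.55 to 1.79 for PS and DE, 1.45 to 2.16 for PS only and 0 for EPI and PS. Whether the interval included equal rates did change. For PS and DE it came to include them with regions of at least 150 bp (0.884 to 3.18) and with those at or above the median width (0.888 to 2.71). For PS only it came to exclude them with assignment within 50 kb (1.047 to 4.44). Counts fell where fewer regions were kept, by construction. With regions of at least 150 bp, there were 51 DE only regions in 26 genes, 9 PS and DE regions in 8 genes and 2 PS only regions in 2 genes. With the narrower regions of each list removed at its median width, there were 84 DE only regions, 12 PS and DE regions in 11 genes and 3 PS only regions in 2 genes. Other counts stayed within 1.5 times. A gene-end window of 2.5 kb took in 25% of DE only regions in place of 12.8%. No paired analysis was possible because the lists hold no value per library, and leaving out a replicate was not possible for the same reason. Depth per library is unknown, so regions missing from a list are not shown to be unbound.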

Other observations

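Assignment to 1 gene per region leaves out regions near a homeobox gene that fell to a neighbour. Within 100 kb of any of the 50 genes lay 267 DE only regions, of which 164 were assigned to the homeobox genes and 103 to other genes. For PS and DE regions the count was 58, with 27 assigned to the homeobox genes and 31 not, and for PS only it was 13, with 8 and 5. EPI and PS regions were at 0 within that distance. The neighbour with the most such regions was Dlgap1, beside Tgif1, with 6 DE only and 2 PS and DE regions. Acbd3 beside Mixl1 and Scaper beside Isl2 had 5 DE only regions and 1 PS and DE region each. Which gene any of these regions acts on was not tested.

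The sequence CCAAT, searched on either strand after the promoter sequences had been read, was in 9 of the 11 homeobox promoters with a DE only region (81.8%), each time with a match inside the covered bases. It was in 24 of 51 homeobox promoters (47.1%), in 44.2% of all promoters with a DE only region and in 35.4% of all promoters. The letters were chosen from these same 11 windows, so the count is a description without a test.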
